A study of Rattus norvegicus with 15 samples.

Results

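Matrix metalloproteinases (MMPs) and their tissue inhibitors (TIMPs) were followed through rat mesenteric arteries, the small arteries of the gut, on 15 Affymetrix arrays of total RNA. The members were 7 genes, the inhibitors Timp1, Timp2 and Timp3 and the proteases Mmp2, Mmp3, Mmp9 and Mmp14. They were found as every probe set whose gene symbol in the platform annotation was one of these names, which gave 9 of the 8740 probe sets that are not array controls and 7 of the 4736 genes with a probe set of a single symbol. The strains were SHR, the spontaneously hypertensive rat, which is inbred for high blood pressure, and WKY, the Wistar Kyoto rat, which serves as its counterpart with normal pressure. In both strains, control arteries were set beside collateral arteries, which carry extra flow because neighbouring arteries were occluded. The 4 groups were WKY control with 3 arrays, WKY collateral with 4, SHR control with 4 and SHR collateral with 4. The series title names impaired collateral growth in SHR as the subject. The labels give no age, sex or time after occlusion, and they name no drug or engineered allele. Nothing in the labels tells whether arrays within a group stand for different rats, so p-values describe the spread between these arrays, which may be technical.

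MMPs are zinc proteases that cut collagens, elastin, proteoglycans and other matrix proteins. Most are secreted as inactive proforms, while MMP14 sits in the cell membrane. TIMPs bind the active site of MMPs and block it. TIMP2 has a further role, since a complex of MMP14 and TIMP2 at the cell surface presents proMMP2 for activation, so the same inhibitor can favour or restrain MMP2 depending on its amount. In the artery wall these proteins come from smooth muscle cells, fibroblasts, endothelium and leukocytes, and they are known for their part in the widening and rebuilding of vessels under altered flow. An array measures transcript, and neither proform activation nor inhibition is visible in it.

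Markers of the artery wall were detected. Of the smooth muscle markers 6 of 8 were measured, among them Acta2, with a median at the 99.8th percentile of its array, and of the fibroblast markers 8 of 9, among them Col1a1 at the 99.9th. Among leukocyte markers Lyz2 had its median at the 93.9th percentile, Cd14 at the 81.2nd and C1qb at the 70.8th, while Itgam lay below the 20th on 14 of the 15 arrays. In such whole-tissue RNA, fewer cells of a type and less RNA per cell cannot be told apart. The array SHR collateral 3 stood apart. Its median Spearman correlation with the others was 0.590, against 0.828 to 0.873 for the other 14 arrays, and its 9 spike-in probe sets averaged a signal of 354580 against 26654 to 130880. Values that it moved by more than 1.5 times are given with and without it. Signals are the deposited MAS5 values, which have no fixed unit. Differences and tests were made within a probe set, while percentiles within an array and summed marker signals only describe, since signals of different probe sets are not comparable as levels. Differences are given as log2 ratios, so that 1 means a doubling, with the standard error (SE) of a limma fit over all 15 arrays and a p-value adjusted by the Benjamini-Hochberg method over all 6512 probe sets that passed a filter on low signal.

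Of the 9 member probe sets, 8 passed that filter, and Mmp9 did not. None of the 8 passed an adjusted p of 0.05 in any of the 7 comparisons. Over all tested probe sets the share called at that threshold was 0% for collateral against control arteries in WKY, in SHR, in their mean and in the difference of the strains' responses, 0% for SHR against WKY in collaterals, 0.0307% in control arteries and 0.891% for the mean strain difference. The comparisons therefore called few or no genes of any kind. At an unadjusted p under 0.05, the share of all tested probe sets was 3.16% for the collateral response of WKY, 3.76% for that of SHR, 1.9% for the difference of the responses and 5.11% for their mean. It was 6.46% for SHR against WKY in control arteries, 7.62% in collaterals and 11.9% for the mean strain difference. At that looser threshold, 2 of the 8 member probe sets were higher in WKY collaterals (both Timp1), 1 was lower in the difference of responses (Timp1), 3 were past it in the mean response (both Timp1 higher, Mmp2 lower) and 1 was higher in SHR control arteries (Timp1). None was past it for the SHR response, for the strains in collaterals or for the mean strain difference. The plot of the 9 probe sets by array gives all the values, and the following paragraphs take them by role.

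**Figure D1:**
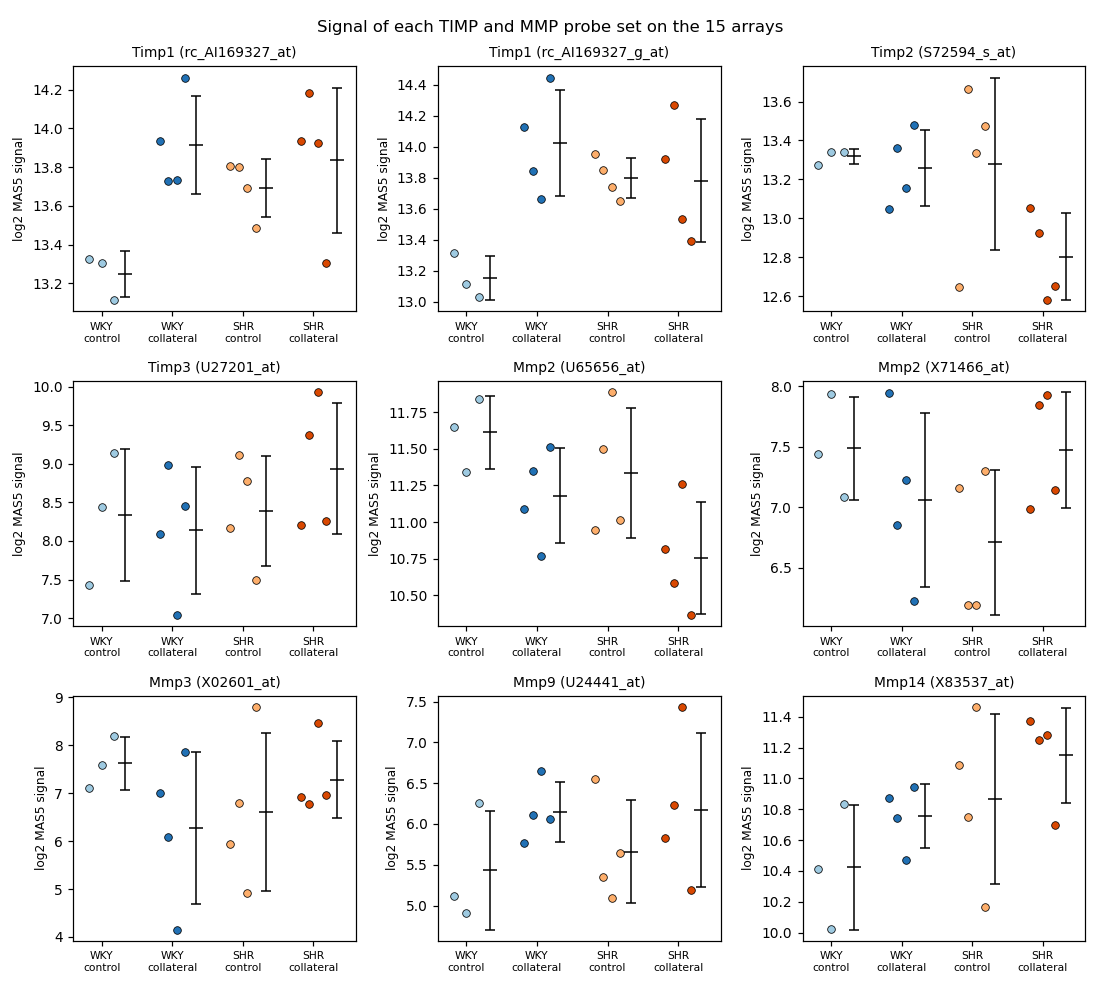
Log2 MAS5 signal (vertical axis, own scale in each panel) of the 9 member probe sets on each array, with points for arrays in order of replicate number and bars for the group mean ± SD (n = 3 for WKY control, n = 4 otherwise). Both Timp1 probe sets have their 3 WKY control arrays below every WKY collateral and SHR control array. The groups of the other members overlap between vessel types of a strain and between strains in a vessel type. SHR collaterals lie wholly below WKY control arteries for Timp2 and Mmp2 U65656_at. Those groups were not compared in the fits, and no share over all probe sets was computed for them.

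Timp1 is an inhibitor of most secreted MMPs that is known to be inducible by growth factors and cytokines. It was the member whose groups separated between vessel types of a strain or between strains in a vessel type. Its probe set rc_AI169327_at gave signals of 10260, 10137 and 8858 in WKY control arteries and 15665, 13576, 13619 and 19656 in WKY collaterals. In SHR it gave 14319, 14254, 13223 and 11464 in control arteries and 15640, 18619, 15557 and 10111 in collaterals. The 3 WKY control arrays were thus the lowest of the 15 but for SHR collateral 4, which lay at 10111 and within their range, and neither the WKY collaterals nor the SHR control arteries overlapped them. The other probe set, rc_AI169327_g_at, gave 10170, 8855 and 8374 in WKY control arteries, 17926, 14719, 12999 and 22345 in WKY collaterals, 15839, 14759, 13681 and 12875 in SHR control arteries and 15498, 19795, 11866 and 10760 in SHR collaterals. Here the WKY control arrays were the lowest of all 15. The probe sets read the same transcript and are no independent measurements (Pearson r = 0.925 over 15 arrays).

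The log2 difference of Timp1 between WKY collateral and control arteries was 0.67 ± 0.25 (SE, 4 against 3 arrays) on rc_AI169327_at and 0.87 ± 0.26 on rc_AI169327_g_at, which corresponds to 1.59-fold and 1.83-fold. The adjusted p was 0.99988 for both, although the second ranked 11 of 6512 by p. All arrangements of the 7 arrays were also enumerated, and the two-sided exact permutation p was 0.0286 for both probe sets, the smallest that 35 arrangements can give. In all 48 exact permutation tests were made over the members, and they were not adjusted. Non-overlap of the WKY groups was common on these arrays, since 6.7% of all tested probe sets showed it. The 2 Timp1 probe sets were the members among them.

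In SHR the collateral arteries did not stand off from the control arteries. The difference was 0.14 ± 0.23 on rc_AI169327_at (95% interval -0.34 to 0.62) and -0.02 ± 0.24 on rc_AI169327_g_at (-0.53 to 0.49). Both values lay close to 0 beside their errors. On rc_AI169327_g_at the value was 0.12 with quantile normalization, which moved the median of all probe sets by -0.09, and 0.06 without SHR collateral 3. On rc_AI169327_at it was -0.04 with equal array medians, a scaling that moved all probe sets alike by -0.18. Ranges overlapped for every member in this comparison, where 1.72% of tested probe sets did not overlap. The difference between the strains' responses, SHR minus WKY, was -0.53 ± 0.34 and -0.89 ± 0.36 (adjusted p = 0.99969 for both), so a different Timp1 response in the strains was not established by the fit over all probe sets. The level in SHR control arteries bears on this comparison. SHR control arteries exceeded WKY control arteries by 0.45 ± 0.25 (adjusted p = 0.857) and 0.65 ± 0.26 (adjusted p = 0.665) with no overlap, a pattern shown by 8.57% of tested probe sets. The exact permutation p was 0.0571 and 0.0286. Between the strains' collaterals the Timp1 difference was -0.08 ± 0.23 (0.086 with quantile normalization) and -0.24 ± 0.24 (-0.16 without SHR collateral 3), with overlapping ranges, as for all members in that comparison, where 3.62% of tested probe sets did not overlap. The collateral response of WKY, the strain difference in control arteries and the difference of responses share the same 3 WKY control arrays, so these values are not separate pieces of evidence.

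In order of mean level, rc_AI169327_at ran from WKY collateral (13.92 ± 0.25, SD of log2 signal, n = 4) through SHR collateral (13.84 ± 0.38, n = 4) and SHR control (13.70 ± 0.15, n = 4) to WKY control (13.25 ± 0.12, n = 3). The other probe set had WKY collateral at 14.02 ± 0.34, SHR control at 13.80 ± 0.13, SHR collateral at 13.78 ± 0.40 and WKY control at 13.15 ± 0.14. On both, neighbouring groups overlapped except at the step down to WKY control. Leaving out any array kept the WKY response between 0.55 and 0.73 on the first probe set and between 0.73 and 0.99 on the second, the lower value in each case without WKY collateral 4.

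Cell type markers are given beside Timp1 for the same comparison. The summed signal of the 7 of 10 listed endothelial markers that were measured was 4820 to 6466 in WKY control arteries and 7598 to 11598 in WKY collaterals, without overlap, and 2529 to 3964 and 3116 to 6098 in the SHR groups. Only 3 of the 7 had a WKY difference above 0, with a median of -0.14, and Esm1, a secreted endothelial proteoglycan, had 1.995 ± 0.42 (SE). In SHR 6 of the 7 were above 0, with a median of 0.36. Monocyte and macrophage markers (7 of 10 measured) summed to 2238 to 5659 in WKY control arteries, 3500 to 19006 in WKY collaterals, 4696 to 44173 in SHR control arteries and 16609 to 29731 in SHR collaterals. In WKY 4 of their 5 tested genes had a difference above 0, with a median of 0.84, beside -0.00061 over all 3825 genes. Of the neutrophil markers 4 of 4 tested were above 0 (median 1.06), with sums of 635 to 1484 and 839 to 2006 in the WKY groups and 459 to 7246 and 498 to 6895 in the SHR groups. Of the smooth muscle markers 5 of 6 were above 0 (median 0.27), with sums of 222004 to 351087 and 260748 to 442758 in the WKY groups. No marker of these lists was at 0. Other lists went the other way in WKY, with 0 of 8 fibroblast markers above 0 (median -0.39) and 0 of 6 adipocyte markers (median -1.06). Adipocyte sums were 8796 to 37684 in WKY control arteries and 4442 to 17623 in WKY collaterals. The WKY medians of the mast cell, lymphocyte, mesothelial and nerve lists were -0.13, -0.09, -0.55 and -0.25. In SHR 4 of 5 monocyte and macrophage markers (median 0.63) and 2 of 4 neutrophil markers (0.34) were above 0. There 1 of 6 smooth muscle (-0.28), 0 of 8 fibroblast (-0.61) and 1 of 6 adipocyte markers (-0.25) were above 0. The SHR medians of the mast cell, lymphocyte, mesothelial and nerve lists were 0.17, 1.06, -0.19 and -0.31. The part of these cells in the Timp1 values was not tested.

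The Timp1 promoter is printed because Timp1 was the member whose groups separated within a strain or within a vessel type. Beside it are those of the inhibitor Timp2 and of Mmp3, whose groups overlapped in those comparisons. Sequences were taken from a RefSeq table on build GRCr8, in which 4 of the 7 members were matched by symbol (Timp1, Timp2, Timp3 and Mmp3), and Mmp2, Mmp9 and Mmp14 were not. Each covers the 250 bases before the annotated start, 5′ to 3′ on the gene's strand, at chrX:3771123-3771372 (minus strand), chr10:104089215-104089464 (minus strand) and chr8:12925031-12925280 (plus strand). Capitals mark matches to TGAGTAA or to TGANTCA, the motif known for binding AP-1, the Fos and Jun family of transcription factors. Both were searched on both strands, and TGAGTAA was picked after the Timp1 sequence had been seen.
Timp1: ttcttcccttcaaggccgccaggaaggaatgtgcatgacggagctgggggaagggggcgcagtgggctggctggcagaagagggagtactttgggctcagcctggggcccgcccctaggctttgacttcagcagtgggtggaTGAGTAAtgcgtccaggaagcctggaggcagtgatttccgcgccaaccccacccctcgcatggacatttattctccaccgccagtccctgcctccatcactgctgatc
Timp2: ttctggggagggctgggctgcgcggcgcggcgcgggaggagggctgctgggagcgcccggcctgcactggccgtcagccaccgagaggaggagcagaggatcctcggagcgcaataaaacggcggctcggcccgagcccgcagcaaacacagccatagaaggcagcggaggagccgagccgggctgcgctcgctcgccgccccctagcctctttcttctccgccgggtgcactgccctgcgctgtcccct
Mmp3: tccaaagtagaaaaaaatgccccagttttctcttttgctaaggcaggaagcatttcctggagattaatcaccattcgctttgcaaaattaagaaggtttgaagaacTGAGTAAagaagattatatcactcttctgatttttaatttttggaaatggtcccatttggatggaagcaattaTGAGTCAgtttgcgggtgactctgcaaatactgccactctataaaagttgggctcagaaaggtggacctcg
The Timp1 window held TGAGTAA at -108 to -102 from the start and no TGANTCA. The Mmp3 window held TGAGTCA at -71 to -65, TGAGTAA at -144 to -138 and a TATAAA at -32 to -27, and its GC content was 38.8%. The Timp2 window, at 72.0% GC, had neither motif. Among 33469 rat promoters of the same length, 2.38% held TGAGTAA, 6.34% TGANTCA and 12.9% TATAAA. These matches describe the letters in the windows and say nothing of binding in these arteries. The annotated Timp1 start lay inside its gene record, which runs from 3766509 to 3772578 on chromosome X.

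Timp2, the inhibitor that also takes part in proMMP2 activation, lay between the 94.7th and 97.4th percentile of its arrays. Its probe set S72594_s_at gave 9911, 10384 and 10366 in WKY control arteries, 8457, 10532, 9113 and 11407 in WKY collaterals, 6405, 12984, 10341 and 11365 in SHR control arteries and 8502, 7762, 6117 and 6437 in SHR collaterals. The SHR collaterals were the low group, and their highest array only just exceeded the lowest WKY collateral. The difference between SHR and WKY collaterals was -0.46 ± 0.24 (95% interval -0.96 to 0.04, adjusted p = 0.657) and that between SHR collateral and control arteries -0.48 ± 0.24 (-0.98 to 0.02, adjusted p = 0.949). In WKY the response was -0.06 ± 0.26, and in control arteries the strains differed by -0.04 ± 0.26. The order was WKY control (13.32 ± 0.04), SHR control (13.28 ± 0.44), WKY collateral (13.26 ± 0.20) and SHR collateral (12.80 ± 0.22), and every neighbouring pair overlapped. The low SHR control array, at 6405, made the SHR response smaller in size, since it was -0.69 without that array. In the collaterals 0 of 6 smooth muscle markers had an SHR minus WKY difference above 0, with a median of -0.78 beside 0.07 over all genes. Their sums were 92049 to 479410 in SHR collaterals and 178121 to 347328 in SHR control arteries. In the same strain comparison 7 of 8 fibroblast markers (median 0.22) and 4 of 7 endothelial markers (0.09) were above 0. In the SHR response 1 of 6 smooth muscle markers (median -0.28), 0 of 8 fibroblast markers (-0.61) and 6 of 7 endothelial markers (0.36) were above 0. Beta-actin and Gapdh transcripts were read near both ends, and the mean excess of the 3′ end over the 5′ end, a sign of RNA quality, was on the log2 scale 1.64 to 2.06 in SHR collaterals and 2.10 to 2.62 in WKY collaterals, without overlap, and 1.71 to 2.31 in SHR control arteries. The part of these in the Timp2 values was not tested.

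Timp3, the inhibitor that binds to the matrix, lay between the 30.0th and 68.2nd percentile of its arrays. Signals of U27201_at were 173, 347 and 564 in WKY control arteries, 271, 509, 132 and 350 in WKY collaterals, 289, 555, 439 and 180 in SHR control arteries and 295, 662, 976 and 305 in SHR collaterals. The groups overlapped throughout, and the highest value belonged to SHR collateral 3. The response was -0.20 ± 0.59 in WKY and 0.55 ± 0.55 in SHR, with group means from 8.14 ± 0.82 in WKY collaterals to 8.94 ± 0.85 in SHR collaterals. The interval of the SHR response ran from -0.60 to 1.70, and without SHR collateral 3 the response was 0.22 ± 0.56. Between the strains' collaterals the difference was 0.80, and 0.47 without that array.

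Among the proteases, Mmp2, the gelatinase that the MMP14 and TIMP2 complex activates, was read by 2 probe sets. The first, U65656_at, gave 3214, 2601 and 3669 in WKY control arteries, 2182, 2615, 1742 and 2922 in WKY collaterals, 1969, 2889, 3790 and 2072 in SHR control arteries and 1805, 1531, 2449 and 1319 in SHR collaterals. Collateral arteries had the lower mean in both strains and the ranges overlapped in each. The difference was -0.43 ± 0.30 in WKY and -0.58 ± 0.28 in SHR, and their mean was -0.51 ± 0.21 (95% interval -0.94 to -0.07, adjusted p = 0.923). The exact permutation p of that mean, with arrays exchanged only within a strain, was 0.0159. The mean response lay between -0.59 and -0.41 when any array was left out. The responses of the strains differed by -0.15 ± 0.41, an interval of -1.01 to 0.72, and by -0.32 without SHR collateral 3. The order of levels was WKY control (11.61 ± 0.25), SHR control (11.34 ± 0.44), WKY collateral (11.18 ± 0.33) and SHR collateral (10.76 ± 0.38), with each neighbouring pair overlapping.

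The other Mmp2 probe set, X71466_at, did not follow it. It reached the 40th percentile of its array on 4 arrays, and it gave 174, 245 and 136 in WKY control arteries, 246, 116, 150 and 75 in WKY collaterals, 143, 73, 73 and 158 in SHR control arteries and 127, 229, 243 and 142 in SHR collaterals. Its response was -0.43 ± 0.60 in WKY and 0.76 ± 0.55 in SHR, so its SHR value had the opposite sign to that of U65656_at, and across the 15 arrays they correlated at r = -0.398. Between the strains' collaterals it differed by 0.41, and by 0.26 without SHR collateral 3. The other Mmp2 statements rest on U65656_at alone. Fibroblast markers, of a cell type that makes MMP2, summed to 346338 to 425250 in WKY control arteries and 280097 to 361583 in WKY collaterals, and to 340222 to 514927 and 249260 to 412966 in the SHR groups. In the mean response 0 of the 8 measured fibroblast markers had a difference above 0, with a median of -0.52 beside 0.01 over all 3825 genes tested. The part of fibroblast RNA in the Mmp2 values was not tested.

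Mmp14, the membrane-bound protease, showed higher SHR than WKY means in both vessel types. X83537_at gave 1365, 1042 and 1827 in WKY control arteries, 1877, 1711, 1420 and 1969 in WKY collaterals, 2180, 1720, 2827 and 1151 in SHR control arteries and 2654, 2432, 2486 and 1658 in SHR collaterals. SHR control arrays 1 and 3 and SHR collateral arrays 1, 2 and 3 were above the WKY range of their vessel type, and the other SHR arrays lay within it. The strain difference was 0.44 ± 0.32 in control arteries and 0.39 ± 0.29 in collaterals, with a mean of 0.42 ± 0.22 (95% interval -0.04 to 0.87, adjusted p = 0.474). Collateral and control arteries differed by 0.33 ± 0.32 in WKY and 0.28 ± 0.29 in SHR. The order from the lowest mean up was WKY control (10.43 ± 0.41), WKY collateral (10.76 ± 0.21), SHR control (10.87 ± 0.55) and SHR collateral (11.15 ± 0.31), with overlap at each step. The monocyte and macrophage markers named above were also higher in SHR. Of their 5 tested genes 2 passed the test in the mean strain difference, Cd74, the chaperone of MHC class II (3.52 ± 0.61 on X13044_at, adjusted p = 0.00643), and C1qb, a complement subunit (2.21 ± 0.47 on X71127_at, adjusted p = 0.0269). Most other marker lists leaned the same way, beside 54.5% of all genes above 0. Above 0 were 4 of 4 mast cell (median 0.78), 4 of 4 neutrophil (0.61) and 4 of 4 nerve markers (0.53). So were 5 of 6 adipocyte (0.87), 6 of 8 fibroblast (0.29) and 4 of 7 endothelial markers (0.10). Lymphocyte and mesothelial markers had 1 of 2 each, and smooth muscle markers 0 of 6 (-0.42). The part of any cell type, or of the 3′ excess given above, in the Mmp14 values was not tested.

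Mmp3 (stromelysin, which cuts proteoglycans and activates other proMMPs) and Mmp9 (a gelatinase of leukocytes and activated vessel cells) were near the lower limit of the arrays. Signals of X02601_at for Mmp3 were 137, 192 and 293 in WKY control arteries, 129, 68, 18 and 231 in WKY collaterals, 61, 111, 30 and 448 in SHR control arteries and 122, 109, 356 and 125 in SHR collaterals. It lay below the 20th percentile on 4 arrays, all groups overlapped, and its differences of -1.35 ± 0.93 in WKY and 0.67 ± 0.86 in SHR had intervals of -3.29 to 0.59 and -1.13 to 2.47. Its highest SHR collateral value was that of SHR collateral 3, without which the SHR response was 0.27 ± 0.90. Between the strains' collaterals the difference was 1.01, and 0.61 without that array. For Mmp9, U24441_at gave 35, 30 and 77 in WKY control arteries, 55, 69, 100 and 67 in WKY collaterals, 94, 41, 34 and 50 in SHR control arteries and 57, 75, 173 and 36 in SHR collaterals. It was below the 20th percentile on 10 arrays and never reached the 40th, so no difference was detectable at this signal over background. That does not show the Mmp9 transcript to be absent. The neutrophil markers S100a8 and S100a9 were below the 20th percentile on 7 and 5 arrays.

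**Figure D2:**
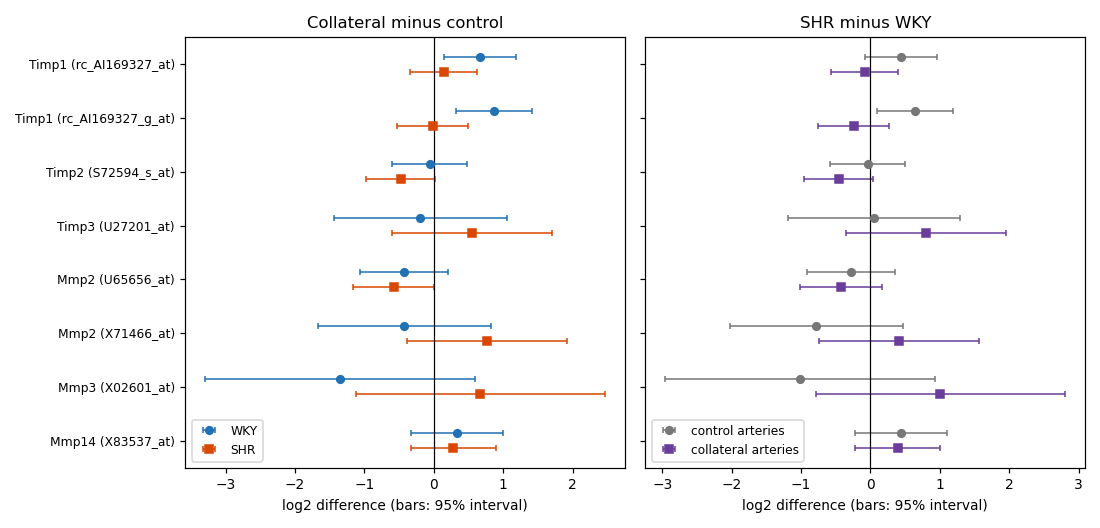
Log2 differences (horizontal axis) of the 8 tested member probe sets, with 95% intervals from the limma fit, for collateral minus control arteries in each strain (left) and SHR minus WKY in each vessel type (right). The Timp1 intervals for WKY collaterals (0.15 to 1.19 and 0.32 to 1.42) lie above 0. So does that of Timp1 rc_AI169327_g_at for SHR minus WKY in control arteries (0.098 to 1.19). The intervals of Timp3, Mmp3 and Mmp2 X71466_at are wide, and no difference passed after adjustment over 6512 probe sets.

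The members differed in how much they varied between the arrays of a group. The spread within groups (pooled SD of log2 signal) was 0.25 and 0.29 for the Timp1 probe sets, 0.28 for Timp2, 0.37 for Mmp2 U65656_at and 0.39 for Mmp14, against a median of 0.72 over all tested probe sets. Only 3.64% and 5.65% of tested probe sets had a smaller spread than the Timp1 ones, and 4.93% than Timp2. Timp1 and Timp2 lay between the 94.7th and 98.7th percentile of their arrays. Their spread was not compared with that of probe sets of like signal. Mmp2 X71466_at had 0.58. Timp3, at 0.81, and Mmp3, at 1.29, varied more than the median probe set. The SE of the WKY response was accordingly 0.59 for Timp3 and 0.93 for Mmp3, against 0.25 and 0.26 for Timp1.

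Ratios of a protease to an inhibitor within the same array do not depend on how that array was scaled, and the pairs Mmp2 and Mmp14 with Timp2, and Mmp3 and Mmp9 with Timp1, were set up so. Each log2 ratio was centred on its mean over 15 arrays, it is not a measure of enzyme activity, and it was not tested. Mmp14 over Timp2 was 0.68 ± 0.27 (SD, n = 4) in SHR collaterals and -0.17 ± 0.23 (n = 4) in WKY collaterals. The SHR arrays ran from 0.37 to 1.03 and the WKY arrays from -0.35 to 0.16, so the groups did not overlap, and the gap of 0.85 was 0.73 without SHR collateral 3. This ratio joins the higher Mmp14 and the lower Timp2 means of SHR collaterals. It was 1 of 16 ratio comparisons, of which 2 did not overlap, and no background share over other ratios was computed. The 3′ excess given above also separated these groups, and its part was not tested. In control arteries the same ratio overlapped between strains, at -0.08 ± 0.83 (n = 4) in SHR and -0.56 ± 0.41 (n = 3) in WKY.

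Mmp2 over Timp2, the pair that meets at the activating complex, was 0.25 ± 0.26 in WKY control arteries, -0.12 ± 0.21 in WKY collaterals, 0.02 ± 0.45 in SHR control arteries and -0.09 ± 0.49 in SHR collaterals, with overlap in each comparison. The gap between collateral and control arteries was -0.37 in WKY and -0.10 in SHR, the latter -0.34 without SHR collateral 3. Between the strains' collaterals it was 0.03, and -0.21 without that array. Mmp3 and Mmp9 lay below the 20th percentile on 4 and 10 arrays, so no size is given for their ratios to Timp1. Mmp3 over Timp1 did not overlap between WKY collaterals and control arteries, and 2 of the 4 WKY collateral arrays were among those where Mmp3 lay below the 20th percentile. Mmp9 over Timp1 overlapped in each comparison. Its SHR minus WKY difference in collaterals was above 0 with SHR collateral 3, which had the highest value, and below 0 without it.

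**Figure D3:**
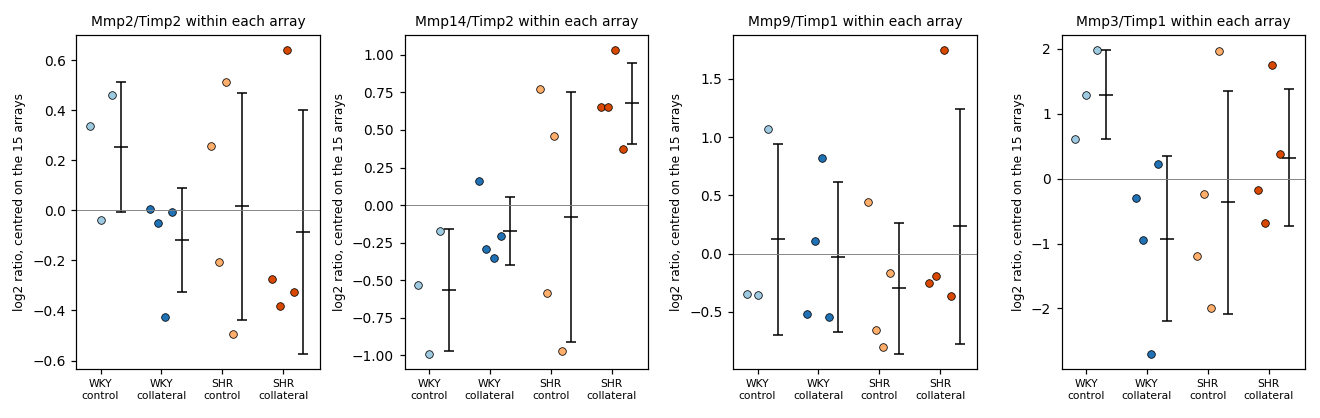
Log2 ratio of each protease to its inhibitor within each array, centred on the mean of the 15 arrays (vertical axis, own scale in each panel), with points for arrays and bars for the group mean ± SD (n = 3 for WKY control, n = 4 otherwise). For Mmp14 over Timp2 the SHR collaterals (0.37 to 1.03) lie above the WKY collaterals (-0.35 to 0.16).

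Between members, 15 pairs were correlated over the 15 arrays with the brightest tested probe set of each gene, and no pair passed a permutation test adjusted over the pairs. Over all arrays the closest pair was Timp2 and Mmp2, with Pearson r = 0.60 (permutation p = 0.0185, adjusted 0.278) and Spearman rho = 0.56 (permutation p = 0.0306, adjusted 0.327). Without the 2 arrays farthest from the median of the gene named first in the pair, here Timp2, r was 0.75. Without SHR collateral 3 it was 0.71, and of deviations from the group means it was 0.33. Timp3 and Mmp14 followed at r = 0.54 and rho = 0.47 (permutation p = 0.0395 and 0.0823, adjusted 0.296 and 0.412), 0.43 without the farthest 2, 0.47 without SHR collateral 3 and 0.49 of deviations from the group means. Timp1 and Mmp14 had r = 0.48 and rho = 0.53 (permutation p = 0.0695 and 0.0436, adjusted 0.348 and 0.327), 0.60 without the farthest 2, 0.55 without SHR collateral 3 and 0.39 of deviations from the group means. For the inhibitors Timp1 and Timp2 r was -0.01 (permutation p = 0.968, adjusted 0.988). The order of the pairs was another one for deviations from the group means, which were not tested. There Mmp2 and Mmp14 had 0.68, against 0.004 over all arrays, and Timp3 and Mmp2 had 0.67, against 0.23.

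The genes whose pattern over the 15 arrays was most like that of each member are given as a description, ranked among 5266 probe sets by Pearson r. For Timp1 they were Olr1, the lectin-like receptor for oxidized LDL (r = 0.84, 0.85 without SHR collateral 3), Uchl1, a ubiquitin hydrolase (0.81, 0.81), and Dbn1, the actin-binding protein drebrin (0.75, 0.76). For Timp2 they were Cavin3, a coat protein of caveolae (0.81, 0.75), Ndrg3 (0.80, 0.77) and Lamb2, a laminin chain of basement membranes (0.80, 0.73). Timp3 was closest to Fer, a tyrosine kinase (0.82, 0.77), Ahcy, an enzyme of the methionine cycle (0.82, 0.77), and Wrap53 (0.81, 0.73). Mmp2 was closest to Mgp, the matrix Gla protein that restrains arterial calcification (0.78, 0.78), Cebpb, a transcription factor (0.76, 0.76), and Use1 (0.75, 0.78). Mmp14 was closest to Capg, an actin-capping protein abundant in macrophages (0.87, 0.87), Clip2 (0.85, 0.88) and RT1-DMb, an MHC class II chain (0.83, 0.81). Mmp3 was closest to Scn2a, a sodium channel (0.87, 0.85), Arrdc4 (0.84, 0.81) and Chdh (0.83, 0.84).

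The rest of the MMP system was read from 6 lists of genes, each by its brightest probe set. Of 19 further genes of the family, other MMPs and Timp4, 8 were measured and 4 tested (Mmp7, Mmp11, Mmp16 and Mmp23), and 0 passed in any comparison. Mmp8, Mmp10, Mmp12 and Mmp13, among them the collagenases of neutrophils and of remodelling tissue, did not pass the filter. Of 21 ADAM and ADAMTS genes, 4 were measured and tested (Adam2, Adam7, Adam10 and Adam17) and 0 passed. Adam2, Adam10 and Adam17 reached the 40th percentile of the array on only 5, 7 and 5 arrays.

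Plasminogen activation is a route to active MMPs, since plasmin cuts their proforms. Of the 11 genes on this list, 9 were measured and 7 tested. The 1 that passed, in the mean strain difference, is a receptor and not a plasminogen activator. F2r, the thrombin receptor, was lower in SHR by a mean difference of -1.57 ± 0.25 (adjusted p = 0.00484), from 13.17 ± 0.27 and 13.97 ± 0.59 in WKY control and collateral arteries (SD) to 12.04 ± 0.16 and 11.95 ± 0.78 in SHR. In WKY collaterals 6 of the 7 had a difference above 0, with a median of 0.51 beside -0.00061 over all 3825 genes, and 0 passed. Plaur, the urokinase receptor, stood at 8.52 ± 0.52 in WKY control arteries and 10.35 ± 0.50 in WKY collaterals, a difference of 1.83 ± 0.43 (adjusted p = 0.99988), with 9.82 ± 0.50 and 10.49 ± 0.79 in the SHR groups. As with Timp1, WKY control arteries had the lowest mean. S100a10, which binds plasminogen at the cell surface, differed by 0.57 ± 0.30 in WKY and 0.07 ± 0.28 in SHR.

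Among activators, inhibitors and receptors of MMPs, 13 of 19 were tested and 1 passed. Cma1, the mast cell chymase, which can activate proMMPs, was higher in SHR by a mean of 1.19 ± 0.27 (adjusted p = 0.0376), with 9.65 ± 0.40 and 9.56 ± 0.31 in WKY control and collateral arteries and 10.98 ± 0.72 and 10.61 ± 0.55 in SHR. The summed signal of 8 measured mast cell markers, Cma1 included, was 2773 to 4346 and 2322 to 4113 in the WKY groups and 4265 to 6991 and 3591 to 7884 in the SHR groups. The part of mast cell number in the Cma1 value was not tested. Furin, the convertase that activates proMMP14, differed between strains by a mean of -0.50 ± 0.18 (adjusted p = 0.261). Klk1, tissue kallikrein, differed by 1.26 ± 0.52 in WKY collaterals and by -0.35 ± 0.48 in SHR collaterals (adjusted p = 0.99988 and 0.949). Itgav, the integrin subunit that docks MMP2, differed by 1.99 ± 0.76 in SHR collaterals (adjusted p = 0.949). Its probe set lay below the 20th percentile on 7 arrays and reached the 40th on 3, the fewest the filter allows. Its mean was highest in SHR collaterals (7.76, against 5.77 to 6.31 elsewhere), the group that may have carried it past the filter.

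Of 28 matrix substrates, 18 were tested and 0 passed. In the mean response 5 of the 18 had a difference above 0, against 51.3% of all 3825 genes, and the list's median was -0.21. The fibroblast markers, of which Col1a1, Col1a2, Col3a1, Dcn and Lum are also on this list, had 0 of 8 above 0 (median -0.52) in the same comparison, and the part of fibroblast RNA was not tested. Fmod, fibromodulin, a collagen-binding proteoglycan, had the widest difference among those named, with -1.31 ± 0.34 in the mean response (adjusted p = 0.652) and -1.24 ± 0.34 between strains (adjusted p = 0.0997). Lamb2 differed by -0.80 ± 0.27 and decorin (Dcn) by -0.60 ± 0.21 in the mean response (adjusted p = 0.807 for both). Versican (Vcan), a large proteoglycan of growing vessel wall, differed the other way, by 0.84 ± 0.30 (adjusted p = 0.807).

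Of the 6 lists, inducers and transcription factors of MMP genes had the lowest median in the mean strain comparison. Of its 27 genes 21 were tested, 6 of the 21 had a mean SHR minus WKY difference above 0 against 54.5% of all genes, and the median was -0.54 beside 0.04. By their brightest probe sets 1 of the 21 passed. Nfkb1, the p105 subunit gene of NF-kB, was lower in SHR by -1.23 ± 0.28 (adjusted p = 0.0376), with 10.92 ± 0.19 and 10.69 ± 0.25 in WKY and 9.96 ± 0.18 and 9.20 ± 1.00 in SHR. Jun, a subunit of AP-1, differed by -1.83 ± 0.48 between strains (adjusted p = 0.0830) and by -1.82 ± 0.70 in WKY collaterals (adjusted p = 0.99988). By the brightest Jun probe set, Timp1 and Jun differed in opposite directions in the latter comparison, neither past the threshold. Any link between them was not tested. Egr1, a zinc finger factor, differed by -1.52 ± 0.39 on its brightest probe set (adjusted p = 0.0811) and by -1.96 ± 0.37 on M18416_at, which passed (adjusted p = 0.0115), while U75398_s_at showed -0.05 ± 0.29, so its probe sets disagree. Tgfb3, a growth factor of the TGF-beta family, differed by 1.13 ± 0.47 in WKY collaterals and -0.79 ± 0.44 in SHR collaterals (adjusted p = 0.99988 and 0.949).

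**Figure D4:**
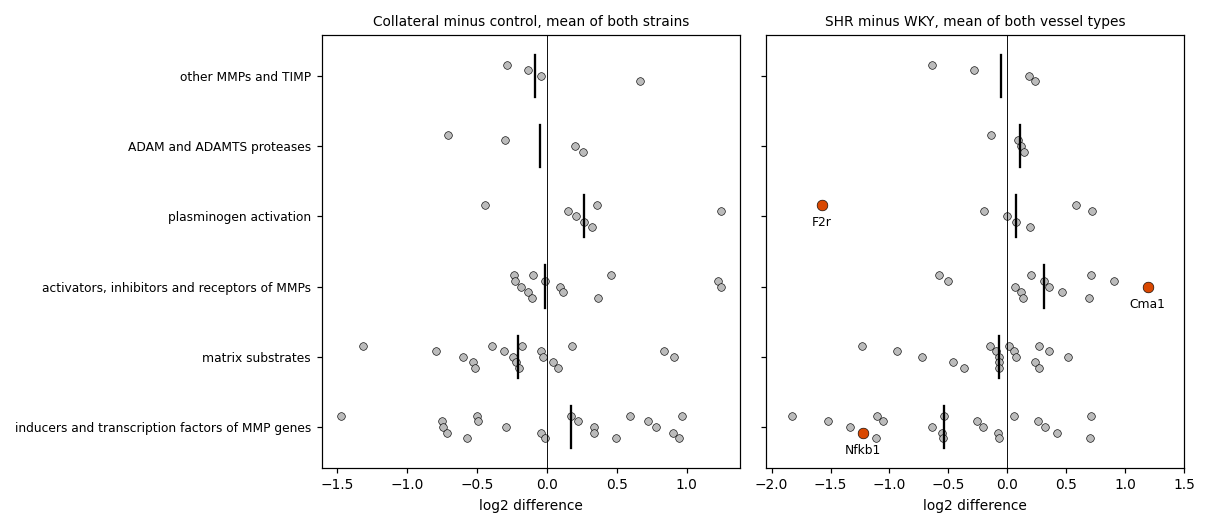
Log2 differences (horizontal axis) of the tested genes of 6 lists around the MMPs, 1 point per gene by its brightest probe set, for the mean response to collateral flow (left) and the mean strain difference (right), with a black bar at each list's median. Orange points passed an adjusted p of 0.05 (F2r at -1.57, Cma1 at 1.19 and Nfkb1 at -1.23 in the strain difference), and points are shifted vertically only for legibility.

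The calls around the family, all strain differences, were not equally stable under the alternative fits. F2r kept its call in all 24 alternative fits, between -1.71 and -1.38. Cma1, with values from 1.04 to 1.30, lost it in 13 of 24 (largest adjusted p = 0.116), among them the fits without any of the WKY arrays, SHR control 1 or 3, or SHR collateral 1. Nfkb1, with values from -1.40 to -1.01, lost it in 15 of 24 (largest adjusted p = 0.154), among them the fits without any of the WKY arrays, SHR control 1, 2 or 3, or SHR collateral 1 or 2. Egr1 M18416_at lost it in 1, the fit with no variance trend (adjusted p = 0.0567). The 3′ excess was lower in SHR than in WKY collaterals without overlap (1.64 to 2.06 against 2.10 to 2.62). None of these fits adjusted for it, and its part in the calls was not tested.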

How the data were processed

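Total RNA of 15 mesenteric artery samples was labelled with biotin and hybridized, per the labels' protocols. The authors deposited 1 MAS5 signal per probe set and array, made with GCOS and MAS5 per the submitters' processing notes. The sources used here do not give their versions. Such scaled signals are relative to each array's total. Titles gave the groups.

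The log2 of each signal was used, after 12 values under 1 had been raised to 1. The 59 control probe sets were left out. A probe set was tested if it reached the 40th percentile of its array on at least 3 arrays, which left 6512 of 8740, and 7006 of the 8740 had 1 gene symbol in the platform annotation. Group means were fitted over all 15 arrays with limma 3.58.1 in R 4.3.3, with moderated two-sided tests, a variance trend and Benjamini-Hochberg adjustment at 0.05. The number of arrays limits the precision (median SE 0.54 for the WKY response and 0.50 for the SHR response). Members were also tested by exact permutation and correlations with 100000 resamples (SciPy 1.17.1). The fits were tested on simulated data.

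The members and lists were chosen with earlier results of these data known. Named were all member probe sets, genes of each list past the threshold and up to 4 per list with the smallest p (unadjusted p under 0.05), and the 3 genes most like each member. The named Egr1 probe sets other than the brightest, Esm1, Cd74, C1qb and the untested MMPs were picked after their values were seen. Alternatives were each array left out in turn, the replicate number as a block (fixed or random), fits on the compared groups only, array weights, no variance trend, the filter at the 60th percentile or absent, a constant of 68.5 added to signals, and scaling by quantiles or to equal medians. For F2r, Cma1, Nfkb1 and Egr1 these were added after seeing the data.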

Additional observations from a re-analysis of the deposited data

Results flagged for a closer look

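The Mmp3 signal of SHR collateral 3, 356, was far from the other 3 of its group. On the log2 scale the gap to the nearest was 0.889 of the group's range, above Dixon's critical value of 0.829 for 4 arrays. This was 1 of 27 group and probe set combinations examined, and chance passes that value in about 1 of 20. SHR collateral 3 is also the array that stood apart in its correlation with the others, and the part of that in the Mmp3 value was not tested.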

How the results depend on the processing

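No member probe set passed in any of 172 member counts under the alternatives, and the smallest adjusted p among them was 0.201 (array weights, mean strain difference). Of 1362 member differences recomputed, 1325 kept their sign and 37 did not, 8 of these outside the fits that left out an array. With array weights, the mean response of Mmp2 X71466_at was -0.039 and that of Timp3 -0.087, and the SHR response was -0.036 for Timp3 and 0.071 for Timp1 rc_AI169327_g_at. With quantile normalization, the SHR response of rc_AI169327_g_at was 0.12, the strain difference of rc_AI169327_at in collaterals 0.086 and that of Timp3 in control arteries -0.031. With equal array medians, the SHR response of rc_AI169327_at was -0.039, where that scaling moved every probe set by about -0.18. It moved the median of all tested probe sets by up to -0.24 (strain difference in collaterals), and quantile normalization by up to -0.13.

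Leaving out an array turned the sign of 11 member values. The response of the strains differed by -0.28 to 0.15 for Mmp14 and -0.32 to 0.035 for Mmp2 U65656_at. The mean response ran from -0.62 to 0.026 for Mmp3 and from -0.050 to 0.38 for Timp3, and the mean strain difference of Mmp3 from -0.37 to 0.28. In collaterals the strain difference of Timp1 rc_AI169327_at was -0.19 to 0.099, and the SHR response of rc_AI169327_g_at -0.18 to 0.11. In control arteries the strain difference was -0.17 to 0.17 for Timp2 and -0.40 to 0.45 for Timp3. The WKY response was -0.13 to 0.012 for Timp2 and -0.65 to 0.21 for Timp3. The causes were not tested.

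Counts over all tested probe sets moved more. For the mean strain difference the 58 calls became 31 with equal array medians, 34 with no variance trend, 184 with array weights, and 30 (without SHR control 3) to 101 (without SHR control 4). For the strains in collaterals 0 calls became 26 with array weights, 2 with only the groups compared, and 0 to 7 (without SHR collateral 4). In control arteries 2 calls became 0 with no filter or the 60th percentile filter, 1 with no variance trend, 14 with array weights, 7 with only the groups compared, and 0 to 6 (without SHR control 4).

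With the replicate number as a fixed block the strain calls numbered 134 in the mean, 6 in collaterals and 4 in control arteries, and with a random block 92, 6 and 4, while 0 members passed. Deviations of same-numbered control and collateral arrays correlated between -0.070 and 0.31, not all above 0.1. So few correlations cannot tell whether same-numbered arrays come from the same rat, and the labels do not say. Nothing is therefore read from the block.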
